A study of Homo sapiens with 12 samples.

Results

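The genes that bring proteins into the endoplasmic reticulum (ER) and carry them on to the Golgi were examined in HepG2 cells, an established human liver tumour line, after toosendanin, a plant triterpenoid, and in the control. Members were chosen by gene symbol alone, with antisense names left out. They cover the signal recognition particle (SRP) and its receptor, the SEC61 translocon with SEC62, SEC63 and the SSR genes, and signal peptidase. They also cover the COPII and COPI vesicle coats, the ARF GTPases, the p24 (TMED) cargo receptors, the SEC22 genes and the TRAPP tethers. The rule took 79 of 28265 genes in the expression table and 261 of 46178 regions in the table of N6-methyladenosine (m6A), a methyl mark within mRNA. The study has 12 libraries, 3 of m6A immunoprecipitate (IP) and 3 of input per condition, from cells labelled toosendanin or control. No dose, time or vehicle was given in the sources used here, and both conditions use this single line.

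A secreted or membrane protein is recognised by SRP as its signal peptide leaves the ribosome, handed over at the SRP receptor and threaded through the SEC61 channel, where signal peptidase cuts the signal off. COPII coats then form vesicles at ER exit sites, COPI coats return escaped proteins and receptors from the Golgi, ARF GTPases recruit COPI, p24 proteins sort cargo into both kinds of vesicle, and TRAPP catches arriving vesicles and activates Rab GTPases. Hepatocytes and cells derived from them send large amounts of plasma protein along this route.

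Values per library were not analysed here. For expression, the authors' deposited table gave each gene's mean normalized count over the libraries compared, its log2 change (toosendanin over control), the standard error of that change (written ±) and an adjusted p. For m6A, the deposited counts were sums over a condition's libraries. Over all regions the control sums were 42316089 in the IP and 34131862 in the input, and those after toosendanin 29094328 and 24253006. A change counts as called where the deposited adjusted p, or for m6A the deposited false discovery rate (FDR), was under 0.05, and only called genes are said to rise or fall. Whether libraries of 1 group are separate cultures is nowhere stated, so the p-values measure a spread that may be technical. All 8 hepatocyte markers checked were present, with mean normalized counts from 5546 to 411979 in the authors' deposited table. Of 6 fibroblast markers 4 were listed at 0, as were 2 of 6 immune and 2 of 5 endothelial markers. The immune markers LYZ and CD68 had means of 49191 and 1426 and log2 changes of -0.37 ± 0.06 and 1.41 ± 0.09 in the authors' deposited table; their part in the results was not tested. The leukocyte and T cell genes PTPRC and CD3E were listed at 0. Less RNA per cell and fewer cells that express a gene cannot be told apart in these libraries.

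One feature that the rule did not use was a short motif before the start of many of these genes, searched for after the data had been seen. The promoter table of RefSeq (GRCh38.p14) held an entry for 69 of the 77 members other than 2 SEC22B pseudogenes. In the 250 bases before the start, the letters ACGTGG were found on either strand in 26 of 69 members, or 37.7%. The same letters were in 8.47% of all 27305 promoters in the table and in 11.6% of 6769 promoters of genes whose mean lay in the upper 50%. ACGTGG is the core bound by the ER stress factor XBP1 and by CREB3-family factors, and part of it is shared with the E-box. The longer element, TG followed directly by the core, was in 7 of 69 members, or 10.1%, against 0.667% of all promoters and 0.827% of those of genes in the upper 50% of means. The compound ER stress elements named ERSE (CCAAT and CCACG with 9 bases of any kind between) and ERSE-II (ATTGG and CCACG with any base between), which share the letters CCACG with the core's other strand, were in 0 of 69 members, and in 0.0806% and 0.0513% of all promoters. With motifs this rare, 0 matches among 69 promoters cannot tell members from other genes. The 7 members with the longer element are shown first, because it was the more unequally shared of the motifs found. Capitals mark the core, read 5′ to 3′ on the gene's strand (CCACGT is the core on the other strand), with up to 20 bases on each side and nothing beyond the gene's start.
ARF1, chr1:228082674-228082707 (+ strand): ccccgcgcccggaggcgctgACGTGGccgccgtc
COPB1, chr11:14499834-14499879 (- strand): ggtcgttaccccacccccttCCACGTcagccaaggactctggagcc
COPB2, chr3:139389818-139389863 (- strand): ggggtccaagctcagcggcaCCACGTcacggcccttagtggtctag
SEC16B, chr1:177984288-177984333 (- strand): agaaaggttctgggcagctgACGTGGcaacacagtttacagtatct
SEC24A, chr5:134648588-134648633 (+ strand): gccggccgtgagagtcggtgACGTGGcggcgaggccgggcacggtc
SEC62, chr3:169966770-169966806 (+ strand): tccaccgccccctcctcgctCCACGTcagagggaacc
SRP19, chr5:112861155-112861200 (+ strand): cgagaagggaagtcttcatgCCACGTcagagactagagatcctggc

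Members with the core were neither all higher nor all lower after toosendanin. It was in 7 of 17 promoters of members that rose (41.2%), in 4 of 8 of members that fell (50%) and in 14 of 43 of members not called (32.6%). By role it was in 6 of 11 COPII promoters (54.5%), 4 of 10 of the translocon and SSR genes (40%), 3 of 8 COPI promoters (37.5%) and 4 of 14 TRAPP promoters (28.6%). Of the 32 matches, 20 lay within 100 bases of the start, and 6 members held 2 matches each. A match is a run of letters and not a measured binding site. The next windows are of members that changed in expression and lack the longer element: SSR1 and SEC63 fell, the others rose.
SEC23IP, chr10:119892509-119892554 (+ strand): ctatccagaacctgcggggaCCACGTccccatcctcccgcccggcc
SEC24C, chr10:73744280-73744325 (+ strand): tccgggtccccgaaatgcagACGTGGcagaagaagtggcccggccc
SEC63, chr6:107958255-107958300 (- strand): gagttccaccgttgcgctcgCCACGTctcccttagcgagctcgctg
SRPRB, chr3:133805788-133805814 (+ strand): cgcctgcgcagagtgcagggCCACGTc
SSR1, chr6:7313261-7313306 (- strand): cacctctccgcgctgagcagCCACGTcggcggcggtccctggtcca
SSR1, chr6:7313311-7313356 (- strand): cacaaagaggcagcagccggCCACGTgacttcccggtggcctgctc
TRAPPC2L, chr16:88856953-88856998 (+ strand): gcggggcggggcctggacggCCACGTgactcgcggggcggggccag
TRAPPC3, chr1:36149524-36149569 (- strand): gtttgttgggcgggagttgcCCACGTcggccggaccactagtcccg

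**Figure D1:**
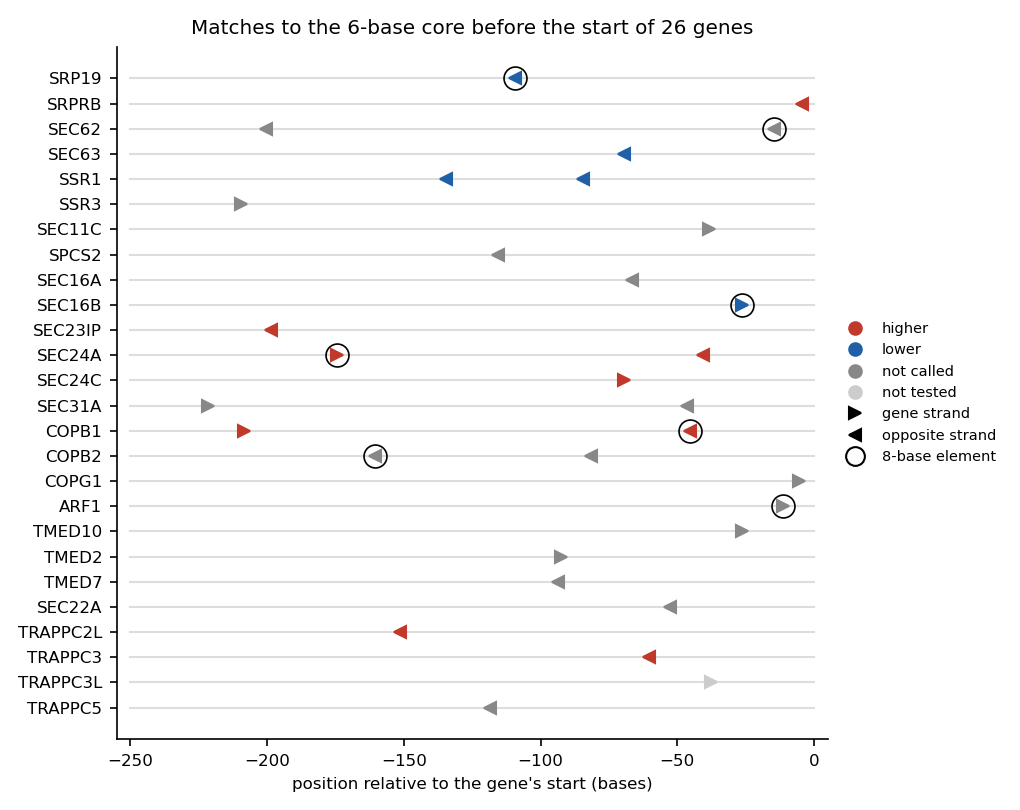
Position of each match to the 6-base core relative to the gene's start (x axis, bases) in the 26 genes that hold one (y axis), with arrowheads for the strand, colours for the expression call and circles around the 8-base element. Of 32 matches 20 sit within 100 bases of the start, and genes of every call are among them.

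Expression of these genes changed by small amounts in both directions. Of the 76 members with an adjusted p in the authors' deposited table, 29 were called (38.2%), 20 higher and 9 lower, beside 31.4% called among all 16552 genes, 15.7% higher and 15.7% lower. The 3 members with no adjusted p, TRAPPC3L and the pseudogenes SEC22B2P and SEC22B3P, were listed at a mean of 0. Among genes in the upper 50% of means 45.4% were called, 22.4% higher and 23% lower, against 25 of 65 members (38.5%), 18 higher and 7 lower. Changes of at least 1.5-fold were called in 6 of 76 members (7.89%) and 14.3% of all genes. Within the upper 50% of means these shares were 2 of 65 members (3.08%) and 13.1%. The median absolute log2 change in the authors' deposited table was 0.14 for those 65 members and 0.24 for all 8276 genes in that range, and the median signed change over the 76 members was 0.04 against 0.00 over all genes. At an adjusted p under 0.01, 13 members were higher and 6 lower. The members nearest the threshold were TRAPPC6A and SRP19 inside it, with adjusted p of 0.0431 and 0.0487, and TMED1 and TRAPPC8 outside, with 0.0988 and 0.115, by the authors' deposited DESeq2 table.

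**Figure D2:**
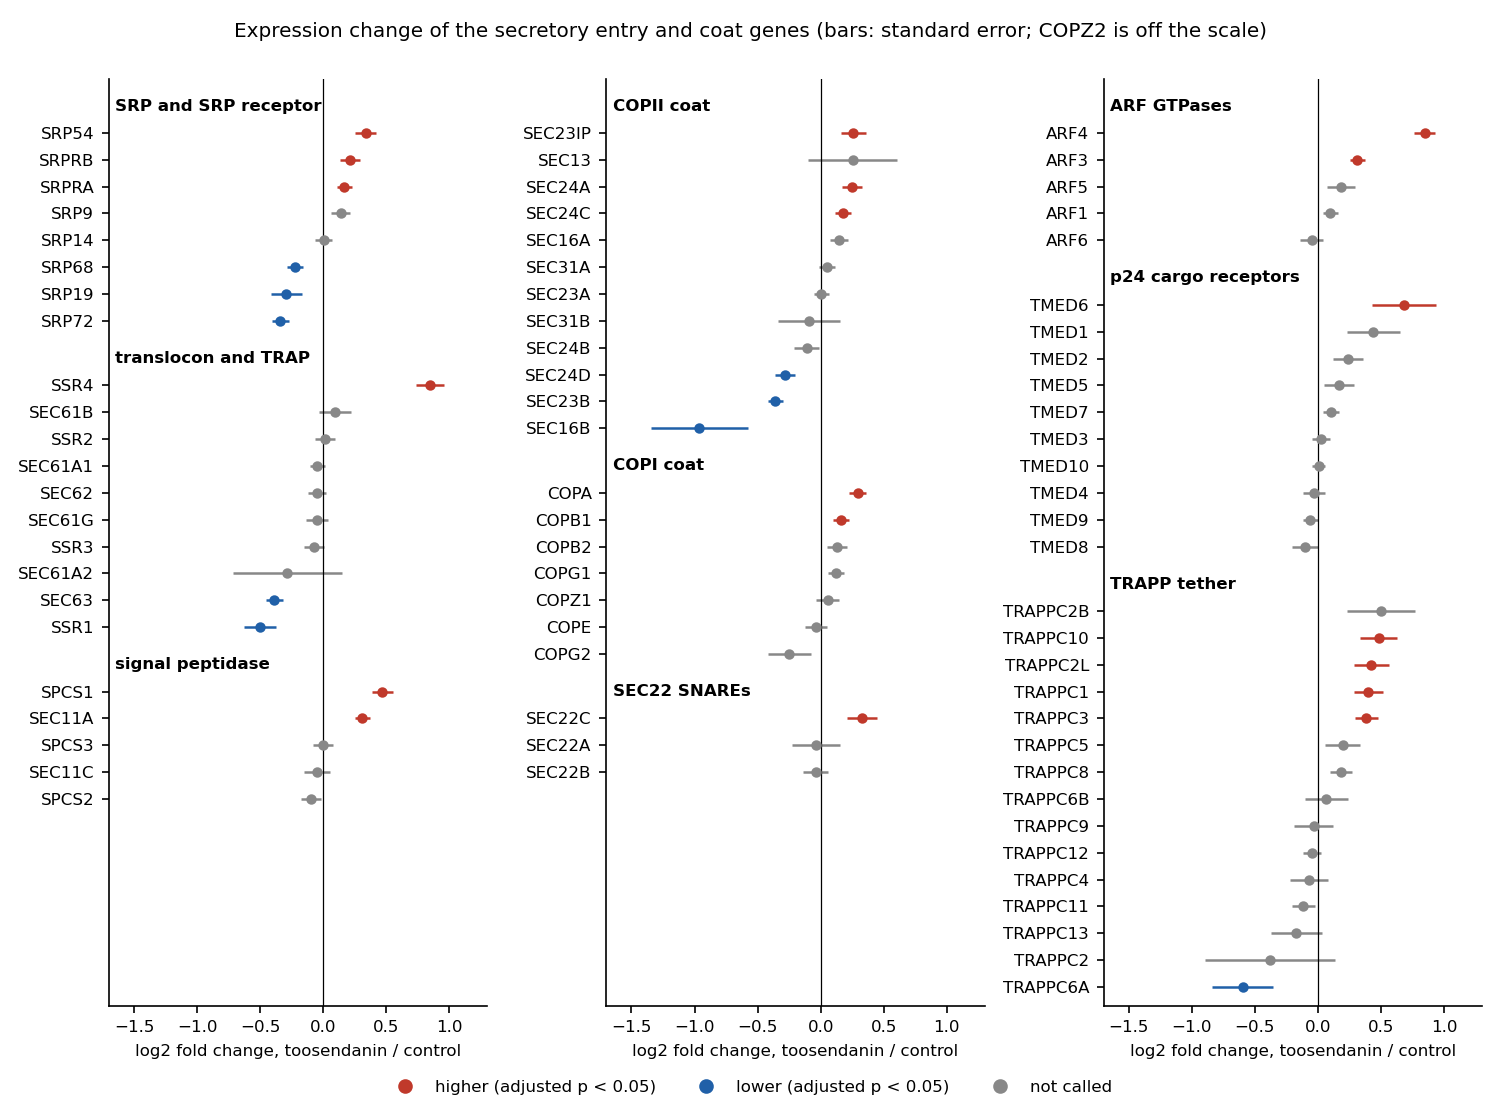
Log2 fold change, toosendanin over control (x axis), of 75 members grouped by role, with bars for the standard error and colours for the call at an adjusted p under 0.05. COPZ2, at 7.92, is off the scale, and apart from SEC16B every other point lies between -0.60 and 0.85.

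SRP subunits moved in both directions. SRP72 and SRP68, which bind each other on the particle, fell by 0.34 ± 0.07 and 0.23 ± 0.06 on the log2 scale in the authors' deposited table. SRP19, which helps the particle assemble, fell by 0.29 ± 0.12 in the authors' deposited table. SRP54, the subunit that binds the signal peptide, rose by 0.34 ± 0.08 in the authors' deposited table. Its difference from SRP72 was 0.68, with a 95% interval of 0.47 to 0.89 if both errors are independent. SRP54 and SRP72 are the highest and lowest of the 8 SRP genes, and the interval takes no account of that choice. The summed inputs over the m6A regions of these genes may come from the same libraries as the deposited expression comparison. They went from 5546 in control to 3127 after toosendanin for SRP72 and from 5806 to 5361 for SRP54. Scaled to the totals of the 2 conditions these are log2 changes of -0.33 and 0.38. Both receptor subunits rose, SRPRA by 0.17 ± 0.06 and SRPRB by 0.21 ± 0.08 in the authors' deposited table. SRP9 and SRP14, the pair that slows elongation, were not called, at 0.14 ± 0.07 and 0.00 ± 0.07 in the authors' deposited table. Thus 3 of 8 genes rose and 3 fell, against 31.4% called in either direction among all genes.

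The SEC61 channel itself was not called. In the authors' deposited table SEC61A1, which forms the pore, stood at -0.05 ± 0.06, SEC61B at 0.09 ± 0.12, SEC61G at -0.05 ± 0.09 and the second pore gene, SEC61A2, at -0.29 ± 0.43. Of the 2 accessory proteins for post-translational entry, SEC63, which recruits the chaperone BiP, fell by 0.39 ± 0.07 and SEC62 was not called at -0.05 ± 0.07, in the authors' deposited table. The summed inputs of SEC63 went from 9838 to 5448, a scaled log2 change of -0.36.

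The 4 SSR genes encode the TRAP complex, which sits beside the channel and helps some signal peptides engage it. SSR4, its delta subunit, rose by 0.85 ± 0.11 in the authors' deposited table (mean normalized count 945.6), the largest rise of the translocon group. SSR1, its alpha subunit, fell by 0.50 ± 0.13 in the authors' deposited table (mean 6404), and its summed inputs went from 8369 to 4613, a scaled log2 change of -0.37. For SSR2 and SSR3 the authors' deposited table gave 0.02 ± 0.08 and -0.08 ± 0.08, neither called. The difference between SSR4 and SSR1 was 1.35, with a 95% interval of 1.01 to 1.68. They are the highest and lowest of the 10 genes of the translocon group, and the interval takes no account of that choice. SSR4 had no m6A region, so no summed inputs could be set beside its rise.

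Among signal peptidase genes, SPCS1 rose by 0.47 ± 0.08 and SEC11A, one of 2 alternative catalytic subunits, by 0.31 ± 0.06 in the authors' deposited table. The other catalytic subunit, SEC11C, was not called: the authors' deposited table gave -0.05 ± 0.10, 0.36 below SEC11A with a 95% interval of 0.13 to 0.60. SPCS2 at -0.10 ± 0.08 and SPCS3 at -0.00 ± 0.08 were not called in the authors' deposited table. SEC11A's summed inputs went from 4123 to 3829, a scaled log2 change of 0.39.

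Paralogs of the COPII coat went different ways. SEC23 and SEC24 form the inner coat, and SEC24 binds cargo. SEC23B fell by 0.36 ± 0.06 in the authors' deposited table, while SEC23A, with a mean normalized count of 13486, stood at 0.00 ± 0.06, a difference of 0.36 with a 95% interval of 0.19 to 0.53. SEC24A and SEC24C rose by 0.24 ± 0.08 and 0.18 ± 0.06 in the authors' deposited table, SEC24D fell by 0.28 ± 0.08 and SEC24B stood at -0.11 ± 0.10. SEC24C exceeded SEC24D by 0.46, with a 95% interval of 0.26 to 0.65. SEC24D is the lowest of the SEC24 genes, and the interval takes no account of that. The summed inputs of SEC24D went from 840 to 445 and those of SEC24A from 488 to 381, scaled log2 changes of -0.42 and 0.14. SEC23IP, which binds SEC23 at exit sites, rose by 0.26 ± 0.10 in the authors' deposited table. The outer coat genes SEC31A and SEC31B were not called, the authors' deposited table giving 0.05 ± 0.06 and -0.09 ± 0.24. Of the 12 COPII genes 3 rose and 3 fell, 50% called beside 31.4% of all genes and 45.4% of those in the upper 50% of means.

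SEC13, an outer coat subunit that also serves in nuclear pores, had a wide error: the authors' deposited table gave 0.26 ± 0.35 on a mean of 9031. Of 1057 genes within 2-fold of that mean, 13 (1.23%) had a standard error at least as large, and the median was 0.07. Its scaled summed inputs gave 0.05 for the log2 change. SEC16B, a scaffold of exit sites, fell by 0.96 ± 0.38 in the authors' deposited table on a mean of 132.5. Its summed inputs went from 375 to 313, a scaled log2 change of 0.23 in the opposite direction, and all of its regions also carry the read-through gene CRYZL2P-SEC16B, so these counts are not those of SEC16B alone. For SEC16A, the major scaffold, the authors' deposited table gave 0.14 ± 0.07, not called.

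Of the 8 COPI coat genes that the rule took 3 rose and 0 fell, beside 15.7% of all genes in each direction. The symbol of a further coat gene, ARCN1, lies outside the rule. It was counted among the coat accessory factors below and was not called, at 0.05 ± 0.10 in the authors' deposited table. COPA, the alpha subunit, rose by 0.29 ± 0.07 and COPB1, the beta subunit, by 0.16 ± 0.06 in the authors' deposited table. COPB2 at 0.13 ± 0.08, COPG1 at 0.12 ± 0.06, COPZ1 at 0.06 ± 0.09 and COPE at -0.04 ± 0.09 were not called there. For COPG2, the second gamma gene, the authors' deposited table gave -0.25 ± 0.17, not called and 0.37 below COPG1 with a 95% interval of 0.01 to 0.72. For COPZ2, the second zeta gene, the authors' deposited table gave 7.92 ± 1.35, but on a mean of only 19.20 normalized counts and with no m6A region. A fitted change of that size on so few counts is not a bound on the fold, and without COPZ2 the COPI count is 2 of 7 higher, beside 22.4% of genes in the upper 50% of means. COPA's summed inputs went from 11092 to 9299 and COPB1's from 6415 to 5203, scaled log2 changes of 0.24 and 0.19.

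ARF4 and SSR4 had the largest rises among members with a mean over 100, with adjusted p of 3.76e-24 and 8.7e-13 in the authors' deposited DESeq2 table. ARF4 rose by 0.84 ± 0.08 in the authors' deposited table (mean 7252), and its summed inputs went up in raw counts, from 4623 to 5992, although the toosendanin total was the smaller one. Its scaled log2 change was 0.87. ARF4 acts at the Golgi and in COPI traffic. ARF3 rose by 0.31 ± 0.06 in the authors' deposited table. ARF1, the main COPI recruiter, stood at 0.10 ± 0.06, ARF5 at 0.18 ± 0.11 and ARF6, which works at the plasma membrane, at -0.05 ± 0.09 in the authors' deposited table. ARF1 minus ARF4 was -0.75, with a 95% interval of -0.94 to -0.55, and ARF4 exceeded ARF5 by 0.66, with an interval of 0.39 to 0.93. ARF4 is the highest of the 5 ARF genes, and these intervals take no account of that.

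Of the TMED genes, grouped here by symbol as p24 cargo receptors, TMED6 was called, 1 of 10 beside 31.4% of all genes. TMED6 stood at 0.68 ± 0.25 in the authors' deposited table on a mean of 111.8. Its summed inputs were 26 and 35. The others ran from -0.11 for TMED8 to 0.44 ± 0.21 for TMED1 in the authors' deposited table, and TMED9 and TMED2, with means of 24319 and 16347, stood at -0.06 ± 0.06 and 0.24 ± 0.12.

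TRAPP genes form a shared core with added subunits, TRAPPII at the Golgi and TRAPPIII in autophagy. TRAPPC3, TRAPPC1 and TRAPPC2L of the core rose by 0.38 ± 0.09, 0.40 ± 0.12 and 0.42 ± 0.14 in the authors' deposited table, and TRAPPC6A, also of the core, fell by 0.60 ± 0.24 on a mean of 207.0. TRAPPC10 of the TRAPPII complex rose by 0.48 ± 0.14 in the authors' deposited table. Its partner TRAPPC9 was not called, at -0.04 ± 0.15 by the authors' deposited table. Of the 4 subunits of TRAPPIII 0 were called in the authors' deposited DESeq2 table, from -0.17 ± 0.20 for TRAPPC13 to 0.18 ± 0.09 for TRAPPC8, the latter at an unadjusted p of 0.0439. In all, 4 of 15 TRAPP genes rose and 1 fell, 33.3% called and close to the 31.4% of all genes. The summed inputs of TRAPPC2L, over 2 regions, went the other way, from 120 to 60, a scaled log2 change of -0.51. Among SEC22 genes, SEC22C rose by 0.33 ± 0.12 in the authors' deposited table. SEC22B, the SNARE of ER to Golgi transport, and SEC22A both stood at -0.04 and were not called.

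**Figure D3:**
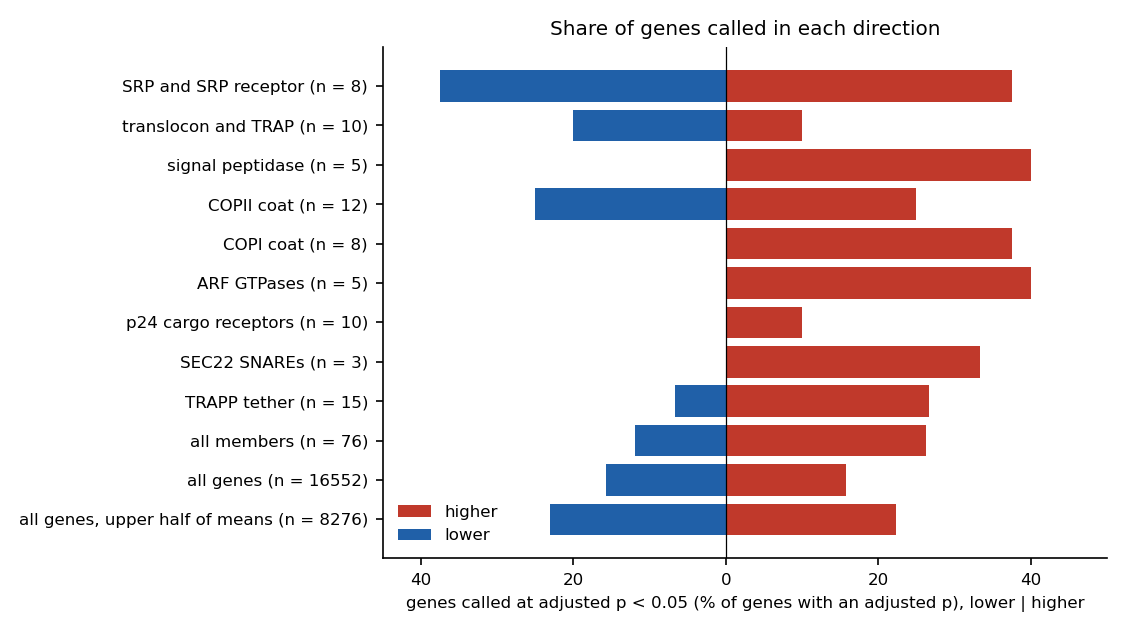
Percent of genes called lower (left) and higher (right) at an adjusted p under 0.05, by role, for all members and for all genes. COPI, signal peptidase, ARF, p24 and SEC22 genes show rises only, SRP and COPII genes equal numbers of rises and falls, and each role holds between 3 and 15 genes.

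The summed inputs gave a second measure for 71 members, which may not be independent of the first. Which libraries entered the deposited expression comparison was not given, so both measures may rest on the same input reads. The direction of the deposited change was itself read from the summed inputs, so shared signs were partly set in advance. Across these genes, which share their libraries and are not independent replicates, the scaled log2 change of summed inputs and the change in the authors' deposited table had a Pearson r of 0.73 and a Spearman rho of 0.79. Of 26 called members with both values, 24 had the same sign, and SEC16B and TRAPPC2L did not. Both of those have few counts or shared region labels, as given above.

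**Figure D4:**
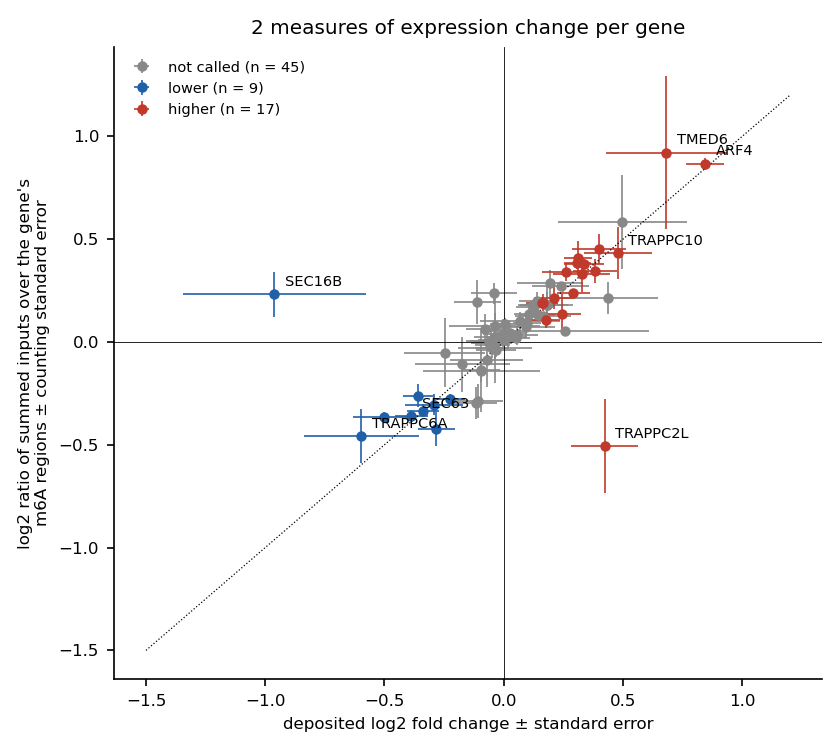
Log2 fold change of the deposited table (x axis, bars are its standard error) against the log2 ratio of summed inputs (y axis, bars are the counting standard error) for 71 members, with the line of equality dotted. ARF4 lies at 0.84 and 0.87, and of the called genes SEC16B and TRAPPC2L lie on opposite sides of 0 in the 2 measures.

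Genes that work beside the members were taken from 4 lists drawn up by function. Of 12 oligosaccharyltransferase genes, which attach N-glycans at the channel, 4 were called higher and 2 lower in the authors' deposited table: TUSC3 by 1.41 ± 0.17, DAD1 by 0.45 ± 0.07 and the co-translational catalytic subunit STT3A by 0.24 ± 0.05 rose, while OSTC fell by 0.27 ± 0.07. The other fall of this list, named after its value was seen, was that of the second catalytic subunit STT3B, by 0.26 ± 0.07 in the authors' deposited table. Of 20 other insertion genes 6 were called higher and 2 lower in the authors' deposited table, with TRAM2 falling by 0.64 ± 0.07, TMCO1 at 0.51 ± 0.08 and CCDC47 at 0.28 ± 0.06. EMC10, listed at 6.76 ± 1.57 there, had a mean of 8.616. The second fall of that list, likewise named after its value was seen, was EMC9, by 0.35 ± 0.14 in the authors' deposited table. Of 11 coat accessory factors 3 were called higher and 2 lower in the authors' deposited table: the COPII GTPases SAR1B and SAR1A rose by 0.46 ± 0.09 and 0.38 ± 0.14, whereas PREB, their exchange factor, fell by 0.26 ± 0.08 and ARFGAP2 by 0.31 ± 0.07. Of 19 ER to Golgi receptors, SNAREs and tethers 5 were called higher and 2 lower in the authors' deposited table, with the ER retrieval receptor KDELR3 at 1.10 ± 0.13, ERGIC3 at 0.21 ± 0.05, ERGIC1 at 0.34 ± 0.09 and the SNARE YKT6 at 0.52 ± 0.14. The 2 falls of this list, also named after their values were seen, were those of the cargo receptor LMAN1, by 0.13 ± 0.05, and the Golgi protein GORASP2, by 0.19 ± 0.08, in the authors' deposited table. In the order given, 50%, 40%, 45.5% and 36.8% of the lists were called in either direction. These shares stand beside 31.4% of all genes and 45.4% of those in the upper 50% of means. The median changes of the 4 lists were 0.25, 0.12, 0.08 and 0.10, beside 0.00 over all genes.

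In control cells most m6A regions of these genes lay under the average IP signal. The level of a region is given as log2 of IP over input, each scaled to its total over all regions, so 0 is the average of the table. Of the 261 member regions 185 had an FDR, and 40 of those (21.6%) were above 0, against 41.5% of all 24688 regions with an FDR. The median level was -0.55 for these 185 member regions against -0.18 for the 24688. The highest level was that of SEC62, at 1.68 ± 0.02 (counting standard error) from 24214 IP and 6075 input counts in control. SRP19 at 1.12, TRAPPC6B at 1.01, a SEC22B region at 0.93, TRAPPC2B at 0.91 and SEC63 at 0.89 followed, and the TRAPPC2B region held 77 control input counts. COPE had the lowest, at -1.67. The remaining 6 genes had no region: COPZ2, SEC61A2, SPCS1, SSR4, TRAPPC2 and TRAPPC3L.

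After toosendanin, 4 of the 6 regions called lower in m6A lay at translocon or signal peptidase genes, namely SEC61A1, SPCS2 and SEC62 (2 regions). Of the 13 called higher, 12 lay at coat, ARF or p24 genes, and none of those 12 stayed called with the widened error described below. The first set of genes held 32 and the second 104 of the 185 regions with an FDR. Of the 185 regions 13 were called higher (7.03%) and 6 lower (3.24%) by the deposited FDR, 10.3% in all. Of all 24688 regions with an FDR 8.95% were called, 2.71% higher and 6.24% lower. These tests hold counting error only, since the sums leave no spread between libraries. Member regions lie lower in control than the rest, and so the split was also read by level: below 0, 7.59% of 145 member regions were higher and 2.07% lower, beside 4.36% and 3.54% of all such regions. Above 0, 5% of 40 member regions were higher and 7.5% lower, beside 0.39% and 10%. That 5% is 2 regions, of TMED2 and SRP14, at control levels of only 0.07 and 0.21. They changed by 0.07 and 0.15, on 23079 and 19278 control IP counts. The count moved with the scaling. Over regions with a deposited FDR, scaling to total counts gave 24 member regions higher and 5 lower of 185, beside 7.36% higher and 2.29% lower of 24680 regions. Over all regions with a finite error, the same scaling gave 20 higher and 4 lower of 260 member regions, beside 3.41% and 1.1% of 45808. With the error widened 1.51 times, so that the middle of all statistics has the width of a standard normal, 1 member region was higher and 4 lower, both of 185 and of 260. All regions then gave 0.588% higher and 1.19% lower of 24680, and 0.29% and 0.533% of 45808.

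Translocon, SSR and signal peptidase genes had 0 regions higher and 4 lower of 32 with an FDR. Coat, ARF and p24 genes had 12 higher and 1 lower of 104. The single called SRP region, at SRP14, was higher, a SEC22B region was lower, and 0 of 25 TRAPP regions were called. With the widened error the calls left were falls at SEC61A1, the stronger SEC62 region, COPA and SEC22B and the rise at SRP14, so no rise of the coat, ARF and p24 genes was among them. Scaled to total counts over regions with a deposited FDR, the first group had 1 region higher, at SEC61B (0.37), and 3 lower, and the second 19 higher and 1 lower. There 2 TRAPP regions, of TRAPPC11 and TRAPPC5, were also higher. With the SRP genes added, the first group had 1 region higher and 4 lower of 50 by the deposited FDR. Pooling roles in this way was not among the planned comparisons, and the difference between these groups of genes was not tested.

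At SEC61A1, IP and input counts were 1480 and 1712 in control and 829 and 1330 after toosendanin, so the IP fell further than the input. The control level of this region was -0.52, under the average of the table. The authors' deposited table gave a log2 change of -0.53 ± 0.08 (FDR 1.17e-08), the largest called fall at a region that carries 1 member and no other gene, and it stayed called with the widened error. The other 4 regions of SEC61A1 were not called and ranged from -0.11 to 0.17 in the authors' deposited table. At the strong SEC62 region, counts went from 24214 IP and 6075 input to 14736 and 4278, a change of -0.22 ± 0.03 in the authors' deposited table, also called with the widened error. The second SEC62 region, at 2252 control IP counts, changed by -0.22 ± 0.08 in the authors' deposited table and was called neither with the widened error nor with scaling to total counts. The only region of SPCS2 changed by -0.30 ± 0.08 in the authors' deposited table and was not called with that error. Scaled to total counts it was called over regions with a deposited FDR and not over all regions. None of these 3 genes was called in expression.

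The region with the largest fall carries the labels of SEC22B and its pseudogenes SEC22B2P and SEC22B3P. Its counts were 909 IP and 386 input in control and 494 and 367 after toosendanin. That is a change of -0.81 ± 0.13 in the authors' deposited table, called with the widened error too. Which of the 3 copies the reads came from cannot be told apart, and both pseudogenes were listed at a mean of 0 in expression. The 3 other regions with these labels were not called.

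COPA held called regions in both directions. Their control levels were below 0, at -0.83 for the fall and -1.55 for the rise. In one, IP and input counts of 3328 and 4777 in control became 2144 and 3770, a change of -0.35 ± 0.05 in the authors' deposited table. In another, 814 and 1923 became 877 and 1497, a change of 0.41 ± 0.09 in the authors' deposited table. The difference between these regions was 0.76, with a 95% interval of 0.56 to 0.96 from counting error. They were taken because their calls were opposite, so this interval is a description and no test of a difference. With the widened error the fall stayed called and the rise did not. The other 7 COPA regions were not called.

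The other called regions were higher. Of all called member regions, 11 higher and 3 lower ones lay below 0 in control, where the IP signal was under average. Whether such regions carry m6A was not tested. SRP14 had the rise that stayed called with the widened error: 19278 IP and 13433 input counts became 15768 and 9623, a change of 0.15 ± 0.02 in the authors' deposited table. SEC23A changed by 0.38 ± 0.09, SEC31A by 0.16 ± 0.06, COPB1 by 0.24 ± 0.08 and COPE by 0.57 ± 0.20 in the authors' deposited table. ARF1 changed by 0.25 ± 0.05 and ARF4 by 0.19 ± 0.05 in the authors' deposited table. Among p24 genes, 2 regions of TMED5 changed by 0.14 ± 0.04 and 0.48 ± 0.15, and single regions of TMED2 by 0.07 ± 0.02, TMED4 by 0.18 ± 0.06 and TMED10 by 0.16 ± 0.04 in the authors' deposited table. Called regions lay in 16 genes, 11 with rises only, 4 with falls only and COPA with both. Of the 24 genes called in expression that had a region with an FDR, 3 (12.5%) had a called region, which were ARF4, COPA and COPB1, as did 13 of 42 members not called in expression (31%). Among all genes these shares were 22.5% of 3999 and 16.5% of 5659.

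**Figure D5:**
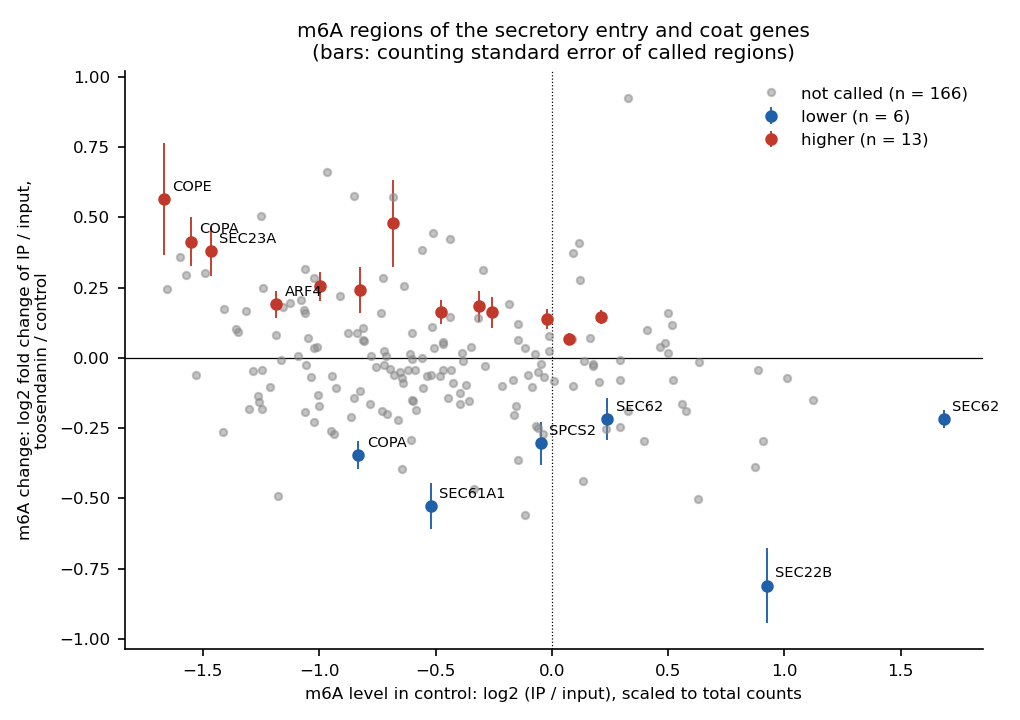
m6A level in control (x axis, log2 IP over input scaled to totals) against the deposited m6A change (y axis, log2) for 185 regions of member genes, with counting standard errors for called regions. The 13 rises lie at control levels between -1.67 and 0.21, and the strongest region, SEC62 at 1.68, is among the 6 falls.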

How the data were processed

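Expression and m6A were measured in 12 libraries of HepG2 cells, 3 per group. Per the submitters' processing notes the tools were HISAT2, StringTie and DESeq. For the genome build, annotation and region caller nothing was given in the sources used here. The expression file is the authors' deposited comparison: per the file headers it holds a mean normalized count (a signal), the log2 fold change, its standard error, a Wald score and p-values. The m6A file holds, per the file headers, sums of read counts for each condition and library type, a log2 fold change, a p-value and an FDR, and no coordinates. In 99.5% of 45783 regions the error implied by the deposited p-value differed by at most 1% from the counting error of its 4 sums, so m6A errors and intervals cover counting error only.

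Nothing was refitted, since no values per library were used. The fold change was read as toosendanin over control because it followed the summed inputs over 8053 genes in the upper 50% of means (Pearson r 0.93 across genes). Levels and input changes were scaled to total counts, and the deposited m6A change uses the authors' own scaling. Adjusted p-values are those of the authors' deposited DESeq2 table. Intervals are 95% intervals, and those of differences between genes treat both errors as independent.

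The members and lists were chosen with earlier results of these data known. Members named are all called ones, the best counted of each role, paralogs, those nearest the threshold and those with called regions, with up to 4 called genes per neighbouring list. Further uncalled members of a complex, and ARCN1, LYZ, CD68, PTPRC and CD3E, were named after their values were seen. Motifs were chosen after the data were seen. Promoter sequences are those of RefSeq (GRCh38.p14). Scripts were tested on simulated data. Python 3.11.15, numpy 2.4.6, pandas 2.3.3, scipy 1.17.1 and matplotlib 3.10.9 were used.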

Additional observations from a re-analysis of the deposited data

How the results depend on the processing

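Of the expression counts, 13 members were higher at an adjusted p under 0.01, and 4 higher and 2 lower with a change of at least 1.5-fold, against 20 and 9. Adjustment over all genes with a p-value, over the upper 50% of means, centring, and leaving out COPZ2 and SEC13 (chosen after seeing the data) kept both counts within 1.5 times. For m6A, 7 regions were higher at an FDR under 0.01, 20 of 260 tested when scaled to total counts and 1 of 260 with the widened error, and 2 were higher and 2 lower among regions above 0 in control, against 13 and 6; the last tests fewer regions, and the cause of the others was not tested. On the 185 regions with a deposited FDR alone (chosen after seeing the data), 24 were higher when scaled and 1 with the widened error. No called gene or region changed direction under these alternatives. Leaving out each replicate was not run, and no paired analysis was possible because no values per library were analysed here. Spread between libraries in m6A could therefore not be measured.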

Other observations

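The promoter motifs of the secretory genes were also counted over all genes by expression call. The 8-base element, TG followed by the core, was in 27 of 2008 promoters of genes called higher (1.34%) and in 11 of 2087 promoters of genes called lower (0.527%), beside 0.742% of 12136 promoters of genes with an adjusted p. The 6-base core ACGTGG was in 12.2% and 10% of the same promoters, beside 10.6%. The difference between higher and lower genes was not tested, and the motifs were chosen after the data were seen.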
